A study of Mus musculus with 4 samples.

Results

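The data describe 10 genes of growth factor signalling in mouse embryonic stem (ES) cells that carry or lack Klf5, a DNA-binding zinc finger protein: the receptor tyrosine kinases Axl, Tyro3, Mertk, Pdgfra, Pdgfrb, Egfr, Erbb3 and Met, and the ligands Gas6 and Pdgfa. The members were taken by gene symbol from the annotation of the array, which gave 25 probe sets of the 45101 rows in the table. The genes were chosen by a reading of the difference between Klf5 knockout (KO) and wild-type (WT) clones on these same arrays, so that difference is given for them as a description and carries no test. A probe set is a group of short probes that together report 1 transcript region, and all 25 are accounted for here. Of these, 20 had a mean signal over the 4 arrays at or above the 40th percentile and were kept for the fit, and every one of the 10 genes had at least 1 kept probe set. The filter lay at an intensity of 13.05.

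Total RNA came from 2 WT and 2 Klf5 KO ES cell clones, each hybridised to 1 Affymetrix GeneChip array. All 4 clones were grown in ES medium with 15% fetal bovine serum (FBS) and the cytokine LIF. The strain, the deleted part of the Klf5 gene and the presence of a feeder layer are not stated in the sources used here. The titles call the lines clones, and nothing says whether the clones were cultured side by side, so the spread between arrays is that between these clones as labelled, with n = 2 per group throughout.

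Receptor tyrosine kinases span the cell membrane, bind a ligand outside the cell, pair up, and phosphorylate each other and a set of adaptors that feed the RAS-ERK and PI3K-AKT pathways. Axl, Tyro3 and Mertk form the TAM family, whose ligand Gas6 also binds phosphatidylserine on dying cells and needs vitamin K-dependent modification. The PDGF receptors are classic markers of mesenchymal cells, and Pdgfra also marks the primitive endoderm of the early embryo. Egfr and Erbb3 belong to the ErbB family, in which Erbb3 has little kinase activity of its own and signals with a partner, and Met is the receptor of hepatocyte growth factor.

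The sequences just before the transcription starts of the TAM receptors are shown because the 3 receptors belong to 1 family and their values in the 4 arrays are set side by side here. They are the 250 bases before the start in RefSeq (GRCm38.p6), written 5′ to 3′ on the strand of the gene. Capitals mark the letters CCNCNCCC on either strand, a consensus of Kruppel-like factors, with overlapping matches run together. The Axl window lies on the minus strand at chr7:25788734-25788983, that of Tyro3 on the plus strand at chr2:119799264-119799513, and that of Mertk on the plus strand at chr2:128698665-128698914.
Axl: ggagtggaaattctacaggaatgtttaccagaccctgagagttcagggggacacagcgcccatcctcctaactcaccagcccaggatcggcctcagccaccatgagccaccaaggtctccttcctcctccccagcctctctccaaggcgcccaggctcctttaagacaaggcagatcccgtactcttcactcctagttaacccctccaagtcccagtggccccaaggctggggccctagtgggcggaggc
Tyro3: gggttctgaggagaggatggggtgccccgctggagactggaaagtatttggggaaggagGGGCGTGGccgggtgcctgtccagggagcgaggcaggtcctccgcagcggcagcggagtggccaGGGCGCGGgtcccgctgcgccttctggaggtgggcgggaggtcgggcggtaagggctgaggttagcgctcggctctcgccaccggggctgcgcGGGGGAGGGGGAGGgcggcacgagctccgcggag
Mertk: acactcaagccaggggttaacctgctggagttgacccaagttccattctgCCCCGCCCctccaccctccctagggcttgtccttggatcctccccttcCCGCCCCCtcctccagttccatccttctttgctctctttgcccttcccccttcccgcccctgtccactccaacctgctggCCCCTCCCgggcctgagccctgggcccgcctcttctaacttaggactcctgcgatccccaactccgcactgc

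In these 250 bases Axl had 0 matches, Tyro3 had 5 and Mertk had 3. The Axl window had 1 match that reached into or lay within the 50 bases after the start. Of 32851 mouse windows of this length, 45.9% held at least 1 match and 6.81% held 5 or more. Of the 9 windows of 8 members searched, 7 held the letters, and no window of Pdgfrb or Erbb3 is given here. The Pdgfra window held 7 matches in runs of C or G, that of Gas6 held 8, that of Met 7, those of Pdgfa 3 and 4, and that of Egfr 0. A match is a description of letters and not a binding site, and no match says only that these letters are not in this window.

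The label Klf5 KO was checked on the brightest Klf5 probe set, which gave 2399 (clone 1) and 1782 (clone 2) in WT and only 34.8 (clone 1) and 49.9 (clone 2) in KO. A dimmer Klf5 probe set read 102 and 88.6 in WT arrays against 82.6 and 61.03 in KO arrays, a log2 difference of -0.35 that did not pass (limma, adjusted p = 0.36). The third was removed by the filter, and its groups overlapped. Over all kept probe sets, 659 of 27022 were higher in KO arrays and 337 lower at the threshold used throughout (limma, Benjamini-Hochberg adjusted p under 0.05). As deposited, WT clone 1 was the brightest array, with a trimmed mean of 227 against 138 to 150.5 in the others, and the arrays were therefore brought to a common distribution. As a measure of RNA integrity, the 3′ over 5′ log2 ratio of the beta-actin controls came to 0.40 and 0.49 in WT arrays against 0.79 and 0.55 in KO arrays. That of the Gapdh controls was alike in both groups, at -0.28 and -0.36 in WT arrays and -0.36 and -0.30 in KO arrays. Pluripotency genes were bright in all arrays, with summed intensities over 14 markers of 42717 and 43362 in the WT clones and 39376 and 41008 in KO. Of these 14, 0 rose and 0 fell (limma; at an unadjusted p under 0.05, 0 were higher and 2 lower). Both KO arrays lay below both WT arrays in 7 of the 14 and above in 1, against 3866 and 3372 of all 13023 genes. The median log2 difference was -0.18 over the 14 and -0.024 over all genes, with Tfcp2l1 at -0.82 and Esrrb at -0.67.

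Axl and Pdgfrb stood apart among the 10 genes. Axl read 3.35-fold and Pdgfrb 2.38-fold higher in KO than in WT arrays on the scale of log2(intensity + 16), which understates the fold of dim genes, and of the 20 kept probe sets these 2 were past the threshold. Over all kept probe sets 2.44% passed as higher in KO, and since the members were chosen with this contrast known, nothing is read from the 2 of 20. None of the 20 passed as lower (limma; 0 also at an unadjusted p under 0.05, against 5 higher), where the share over all kept probe sets was 1.25%. Both KO arrays lay above both WT arrays in 11 of the 20, and below in 0, against 23.9% and 28.4% of all kept probe sets. The median log2 difference was 0.22 over the 20 and -0.022 over all kept probe sets. The choice of members bears on these counts and on the median in the same way. They are a description, and no excess of rises is read from them.

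**Figure D1:**
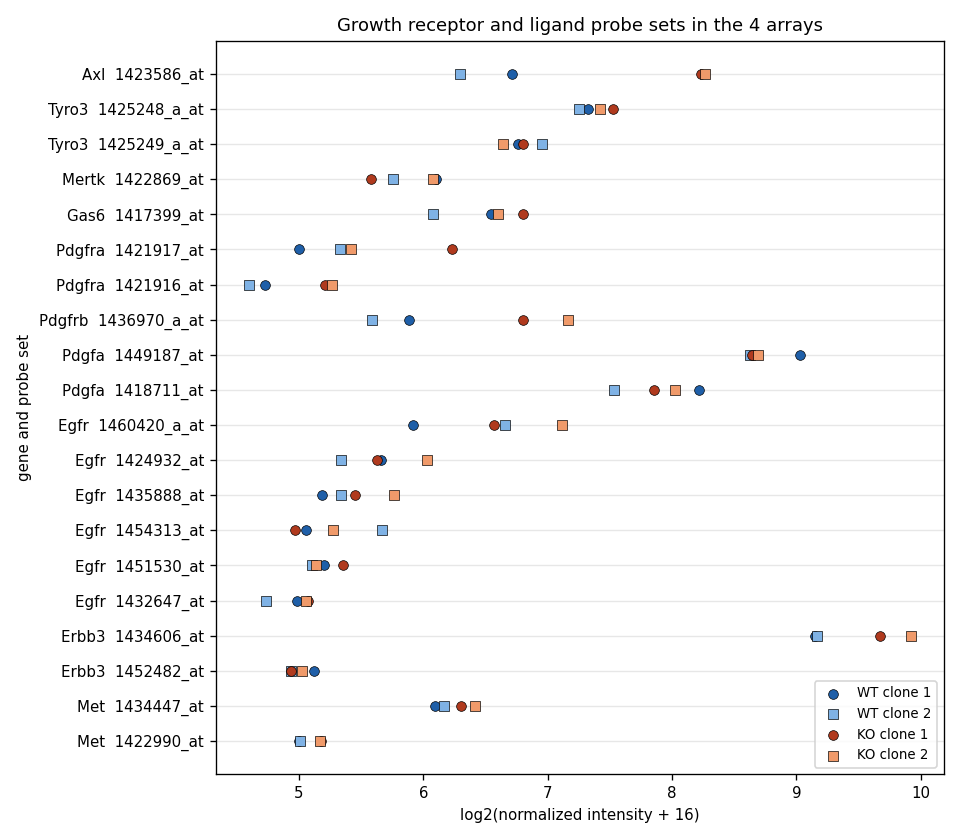
Log2 of the normalized intensity plus 16 (x axis) of the 20 kept probe sets of the 10 genes (y axis), with 1 point per array: blue for WT clones, red and orange for KO clones, circles for clone 1 and squares for clone 2. The KO points of Axl 1423586_at and Pdgfrb 1436970_a_at lie to the right of the WT points by at least 1.52 and 0.92, whereas the points of Mertk, Pdgfa and several Egfr probe sets are mixed.

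Among the TAM receptors, Axl promotes survival and migration of mesenchymal and tumour cells. After normalization its probe set 1423586_at read 88.9 (WT clone 1), 62.5 (WT clone 2), 284 (KO clone 1) and 292 (KO clone 2). The KO arrays were close to each other and well above both WT arrays, of which clone 2 was the dimmer. The log2 difference was 1.74 ± 0.20 (moderated standard error, SE, n = 2 arrays per group), and the 4 pairings of a KO with a WT array gave 1.52 to 1.97. By size it ranked 143 of the 27022 kept probe sets from the largest rise down. The other Axl probe set, 1438621_x_at, was removed by the filter. It read 11.4 and 12.2 in WT arrays and 7.09 and 14.2 in KO arrays, and its suffix (_x_at) marks probes that may also match other transcripts.

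Tyro3, a TAM receptor best known from the nervous system, was measured by 2 kept probe sets. The brighter, 1425248_a_at, read 144 and 136 in WT arrays against 168 and 155 in KO arrays, a log2 difference of 0.18 ± 0.18. The KO arrays lay just above the WT arrays there. The other, 1425249_a_at, read 92.5 and 108 in WT against 95.6 and 83.5 in KO, and its difference of -0.14 ± 0.19 had the opposite sign, with the groups overlapping. The difference of the brighter probe set turned to -0.025 after centring on the median and to -0.075 in the values as deposited, so no direction is given for Tyro3.

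Mertk, through which phagocytes take up dying cells, read 52.6 and 37.9 in the WT clones and 31.7 and 51.5 in KO arrays. The groups overlapped, the log2 difference was -0.10 ± 0.23, and it became 0.15 without KO clone 1 and 0.074 without WT clone 1. Gas6, the ligand shared by the 3 receptors, read 77.1 and 51.6 in WT arrays and 95.3 and 80.9 in KO arrays. Every KO value of Gas6 exceeded every WT value, although WT clone 1 lay close to KO clone 2, and the log2 difference was 0.39 ± 0.21. It ran from 0.16 without WT clone 2 to 0.62 without WT clone 1. A second Gas6 probe set, 1459585_at, did not pass the filter and read 2.16 in both WT arrays and 5.45 and 2.42 in KO arrays.

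Of the PDGF receptors, Pdgfrb, the receptor of pericytes and fibroblasts that binds PDGF-B, gave the clearer difference. Its probe set 1436970_a_at read 43.0 (WT clone 1), 31.9 (WT clone 2), 95.5 (KO clone 1) and 127 (KO clone 2). Each KO value exceeded each WT value, and the groups were separated by a log2 gap of 0.92. The log2 difference was 1.25 ± 0.21, rank 321 of 27022 from the largest rise. Its other probe set, 1417148_at, was dim and removed by the filter, with 1.66 and 1.47 in WT arrays against 4.77 and 5.30 in KO arrays.

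Pdgfra, which binds all the classic PDGF chains, read near the filter intensity in WT arrays. Its probe set 1421916_at read 10.5 and 8.17 in WT arrays, under the filter intensity of 13.05, and 21.0 and 22.6 in KO arrays, a log2 difference of 0.58 ± 0.18. The KO arrays lay close to each other there. The brighter probe set 1421917_at read 15.998 and 24.3 in WT, 59.1 in KO clone 1 and 26.7 in KO clone 2. Here KO clone 1 alone stood high, and the log2 difference of 0.66 ± 0.27 became 0.25 without that array. The third, 1438946_at, was removed by the filter, with 8.17 and 11.7 in the WT clones and 16.1 and 11.7 in KO arrays.

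Pdgfa, a ligand of Pdgfra that epithelia and ES cells make, was bright in all arrays. Its probe set 1449187_at read 507 and 380 in WT arrays and 384 and 397 in KO arrays, a log2 difference of -0.16 ± 0.20. The other, 1418711_at, read 281 and 169 in WT arrays against 216 and 245 in KO arrays, with 0.069 ± 0.24. In each probe set the highest value was that of WT clone 1 and the lowest that of WT clone 2, so both KO arrays lay between the WT arrays. The sign of 1449187_at turned without WT clone 1 (0.036) and that of 1418711_at without WT clone 2 (-0.27), without KO clone 2 (-0.015), after centring on the median (-0.17) and in the values as deposited (-0.22).

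The ErbB receptors gave 1 bright Erbb3 probe set and a set of dim Egfr ones. The Erbb3 probe set 1434606_at read 552 (WT clone 1), 558 (WT clone 2), 799 (KO clone 1) and 953 (KO clone 2). The WT arrays were nearly equal and both KO arrays were higher, with a log2 difference of 0.64 ± 0.19 (1.56-fold). It was 0.35 after centring on the median and 0.30 in the values as deposited, 0.76 when KO clone 1 was left out and 0.51 when KO clone 2 was. The second Erbb3 probe set, 1452482_at, was close to the filter in every array, at 18.8 and 14.6 in the WT clones and 14.7 and 16.5 in KO, and differed by -0.048 ± 0.18.

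Egfr, the receptor of EGF and epiregulin, had 7 probe sets, 6 of them kept. The brightest, 1460420_a_at, read 44.3 and 85.1 in WT arrays and 78.9 and 123 in KO arrays. The WT clones lay far apart, the groups overlapped, and the log2 difference of 0.55 ± 0.28 ran from 0.18 without WT clone 1 to 0.93 without WT clone 2. Over the other 5 kept Egfr probe sets the log2 differences were -0.24, 0.092, 0.20, 0.33 and 0.35. Both KO arrays exceeded both WT arrays in 2 of the 6, 1435888_at (20.4 and 24.3 in WT, 27.7 and 38.3 in KO) and 1432647_at (15.7 and 10.7 in WT, 17.6 and 17.4 in KO). Over all kept probe sets that share was 23.9%, and nothing is read from the 2 of 6. The remaining probe set, 1457563_at, had no value above 4.06 and was removed.

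Met, the receptor of hepatocyte growth factor that guides epithelial scattering, differed little but with a narrow spread. Its probe set 1434447_at read 52.3 and 55.9 in WT arrays against 63.1 and 69.5 in KO arrays, a log2 difference of 0.23 ± 0.18. The other, 1422990_at, read 15.98 and 16.2 in the WT clones and 20.2 and 20.01 in KO arrays, with 0.17 ± 0.18. In both probe sets the KO arrays lay above the WT arrays, as they did in 23.9% of all kept probe sets. The differences stayed between 0.071 and 0.31 over the alternatives. On the array-wide scale these sizes are common: the 2 probe sets ranked 6404 and 7836 of 27022 from the largest rise.

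**Figure D2:**
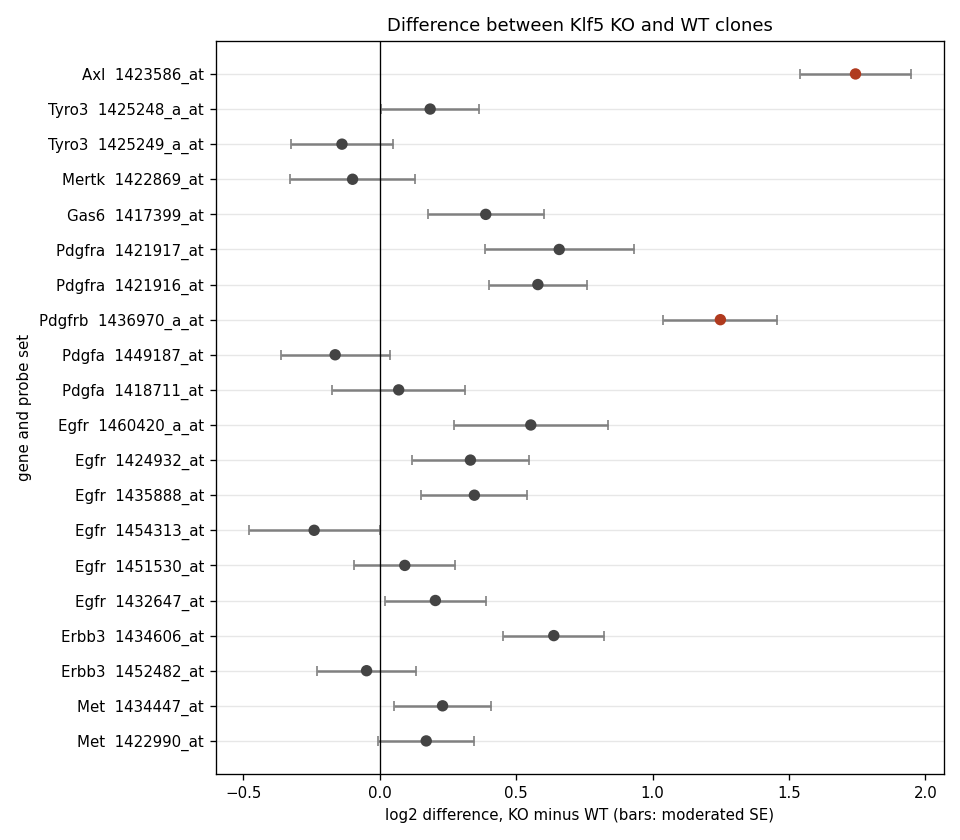
Log2 difference of KO minus WT arrays (x axis) of the 20 kept probe sets (y axis), with points for the differences and bars for the moderated SE (n = 2 arrays per group). The 2 probe sets past the array-wide threshold, Axl at 1.74 and Pdgfrb at 1.25, are drawn in red as a description, and the other 18 lie between -0.24 and 0.66.

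The brightness filter divided the members with little room. Just inside it were Pdgfra 1421916_at and Egfr 1432647_at, at the 42.6 and 43.0 percentile of mean signal, and just outside were Pdgfra 1438946_at and Axl 1438621_x_at, at the 38.0 and 36.7 percentile. A probe set that is dim in WT arrays can pass such a filter only through its KO values, as Pdgfra 1421916_at did.

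Genes around these receptors were taken from 6 lists that hold no member, and 109 of 143 listed genes were measured. The lists were chosen with earlier results of these data known, so their counts are a description. Of the 109, 4 rose, 2 fell and 103 did not pass (limma, adjusted p under 0.05). That is against 2.94% higher and 1.34% lower over all 13023 genes, and the median log2 difference was -0.021 over the lists and -0.024 over all genes. The genes that rose were Cd44, Ereg, Nrp1 and Csf1, and those that fell were Ephb3 and Kit. Of these, Ereg was kept by the filter only through its KO values. With any 1 array left out, Cd44, Ereg, Nrp1 and Csf1 still passed.

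A list of other TAM ligands, the bridging protein Mfge8 and the vitamin K enzymes that Gas6 needs held 8 measured genes. Of these, 0 rose and 0 fell (limma, with 2 higher and 1 lower at an unadjusted p under 0.05). Pros1 (protein S), the other main TAM ligand, read 189 and 179 in WT arrays and 165 and 166 in KO arrays (adjusted p = 0.70). Vkorc1l1, a vitamin K reductase, had 0.62 ± 0.22 (adjusted p = 0.17) on its brightest probe set and -0.17 (adjusted p = 0.67) on another. Mfge8, a bridging protein of phagocytosis, had 0.42 ± 0.18 (adjusted p = 0.24), the galectin gene Lgals3 had -0.50 ± 0.19 (adjusted p = 0.19), and Tulp1 had -0.54 ± 0.25 (adjusted p = 0.26).

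In the PDGF, VEGF and Csf1 receptor family 2 of 17 measured genes rose, 1 fell and 14 did not pass. Nrp1 (neuropilin-1), a co-receptor of VEGF and semaphorins, read 38.3 and 19.8 in WT arrays against 173 and 219 in KO arrays. It rose by 2.26 ± 0.24 on the log2 scale (limma, adjusted p = 0.0015), and 2 further Nrp1 probe sets rose by 2.18 and 1.90, while with a pseudocount of 1 the brightest no longer passed (adjusted p = 0.055; 1.6e-05 to 0.055 over the alternatives). Csf1, the macrophage colony-stimulating factor that stromal cells secrete, read 93.7 and 69.4 in the WT clones and 338 and 333 in KO arrays. It rose by 1.86 ± 0.20 (limma, adjusted p = 0.0015). Of 3 further Csf1 probe sets, 1448914_a_at and 1425155_x_at rose by 1.73 and 1.58, and 1425154_a_at, with a log2 difference of 0.78, did not pass (adjusted p = 0.060). The receptor gene Csf1r read 45.6 and 49.5 in WT arrays and 38.0 and 49.7 in KO arrays (adjusted p = 0.83).

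Kit, the stem cell factor receptor that ES and germ cells carry, read 702 and 744 in WT arrays against 383 and 389 in KO arrays. It fell by 0.88 ± 0.18 (adjusted p = 0.031), and a second Kit probe set fell by 0.93 (adjusted p = 0.037). Leaving out any of the 4 arrays ended the call (adjusted p between 0.092 and 0.16), although the difference stayed between -0.92 and -0.84. Pdgfc, a PDGF ligand that activates Pdgfra, had 0.93 ± 0.26 (adjusted p = 0.091), with 109 and 55.9 in the WT clones and 166 and 162 in KO arrays, and it passed under 5 of 12 alternatives. Pdgfb, the ligand of Pdgfrb, read 101 and 105 in WT arrays and 83.3 and 111 in KO arrays (adjusted p = 0.85).

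Of 14 measured genes for EGF family ligands, other ErbB receptors and their regulators, 1 rose, 0 fell (limma; 1 lower at an unadjusted p under 0.05) and 13 did not pass. Ereg, the EGF family ligand epiregulin, read 4.35 and 10.5 in WT arrays, under the filter intensity, and 172 and 141 in KO arrays. It rose by 2.89 ± 0.21 (limma, adjusted p = 0.00021). The filter kept Ereg only through its KO values, so its call is a description. Because the WT level was so low, its size ran from 1.62 to 4.32 over the alternatives. Betacellulin (Btc), another EGF family ligand, had 0.67 ± 0.18 (adjusted p = 0.075), Tgfa had -0.49 ± 0.27 (adjusted p = 0.34), and the receptor gene Erbb2 had -0.74 ± 0.27 (adjusted p = 0.17).

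In the HGF and Met group 1 of 9 measured genes rose, 0 fell (limma; 1 lower at an unadjusted p under 0.05) and 8 did not pass. Cd44, a hyaluronan receptor that can act as a co-receptor of Met, read 95.8 and 74.2 in WT arrays against 1471 and 1723 in KO arrays. It rose by 4.001 ± 0.20 (adjusted p = 5.4e-05), and 2 further Cd44 probe sets rose by 3.91 and 3.36. The tetraspanin Cd151 had 0.55 ± 0.18 (adjusted p = 0.13), the HGF-like protein Mst1 had 0.66 ± 0.23 (adjusted p = 0.15), and Spint1, an inhibitor of the protease that activates HGF, had -0.50 ± 0.18 (adjusted p = 0.16).

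Among 23 measured genes of other receptor tyrosine kinases 0 rose (limma; 2 higher at an unadjusted p under 0.05), 1 fell and 22 did not pass. Ephb3, an ephrin receptor, read 121 and 166 in the WT clones and 54.5 and 60.3 in KO arrays. It fell by 1.11 ± 0.20 (adjusted p = 0.021), and leaving out KO clone 1, KO clone 2 or WT clone 2 ended the call (adjusted p between 0.077 and 0.15), whereas leaving out WT clone 1 did not. Ntrk2, the receptor of brain-derived neurotrophic factor, had 0.65 ± 0.18 (adjusted p = 0.090). Styk1 had 0.64 ± 0.28 and Aatk -0.60 ± 0.27 (adjusted p = 0.24 and 0.25). Of 38 measured adaptors, kinases and phosphatases downstream of the receptors, 0 rose and 0 fell (limma; 3 higher and 3 lower at an unadjusted p under 0.05). Those of largest size were the RAS activator Sos1 (-0.64, adjusted p = 0.13), the docking protein Gab1 (-0.53, adjusted p = 0.18), the adaptor Crk (0.50, adjusted p = 0.17) and the ubiquitin protease Usp8 (-0.48, adjusted p = 0.20). Their other kept probe sets did not pass either. These gave 0.041, -0.51 and -0.28 for Sos1 and -0.62 and -0.64 for Gab1. For Crk they gave 0.25, 0.046, 0.28 and -0.069, and for Usp8 0.36.

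**Figure D3:**
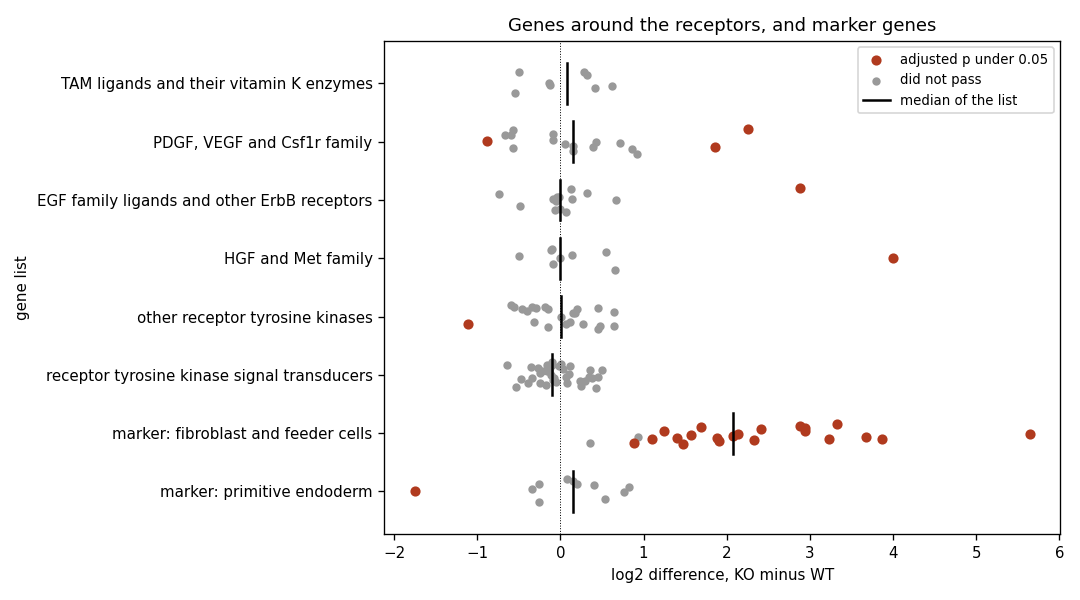
Log2 difference of KO minus WT arrays (x axis) of each measured gene in the 6 receptor lists and in 2 marker lists (y axis), with genes past the threshold in red, others in grey and the median of each list as a black bar. The medians of the receptor lists lie between -0.096 and 0.15, and that of the fibroblast markers at 2.07.

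Markers of fibroblasts and feeder cells, which also express Axl and the PDGF receptors, were higher in the same KO arrays. Of 23 measured markers, 21 rose, 0 fell (limma; 0 lower also at an unadjusted p under 0.05) and 2 did not pass, with a median log2 difference of 2.07. The largest were S100a4 (5.64), Col1a2 (3.87), Bgn (3.67) and Lox (3.32). Over all 13023 genes 2.94% rose and 1.34% fell. The marker list was chosen with earlier results of these data known, so its count is a description. Some markers were kept only through their KO values, such as Dcn, at 2.14 and 2.89 in WT arrays and 72.0 and 59.1 in KO arrays. The summed intensity over 25 markers was 4533 and 3069 in WT arrays and 15519 and 15609 in KO arrays. No marker was listed at 0, and 4 of the 25 read under the filter intensity in both WT arrays. Their part in the values of Axl, Pdgfrb, Pdgfra, Csf1, Nrp1, Cd44 and Ereg was not tested, and in bulk RNA more cells of a type and more RNA per cell cannot be told apart.

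Of 11 measured markers of the primitive endoderm, the early lineage that carries Pdgfra, 0 rose (limma; 3 higher at an unadjusted p under 0.05) and 1, the laminin gene Lama1, fell by 1.75 (adjusted p = 0.0019). Amn (0.82), Col4a1 (0.77) and Col4a2 (0.54) did not pass (adjusted p = 0.083, 0.074 and 0.21). A second Col4a1 probe set had 0.37 (adjusted p = 0.29). Both KO arrays lay above both WT arrays in 4 of the 11 and below in 3, against 3372 and 3866 of all 13023 genes. The summed intensity over 15 primitive endoderm markers was 1998 and 1703 in WT arrays against 1807 and 2082 in KO arrays, with none at 0. Of that sum the laminin gene Lamb1 alone gave 869 and 768 in WT arrays and 623 and 747 in KO arrays. The transcription factor genes Gata4, Gata6 and Sox17 read only between 8.96 and 35.1 in the 4 arrays, and did not pass. Of 8 trophoblast markers 0 rose (limma; 1 higher at an unadjusted p under 0.05) and 1, the keratin gene Krt18, fell by 0.90 (adjusted p = 0.038), and of 8 mesoderm markers 0 rose and 0 fell (limma; 0 higher and 1 lower at an unadjusted p under 0.05).

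The genes whose profile over the 4 arrays was most like that of Axl, by the root mean square distance of log2 profiles each set to its own WT mean, were Mmd (0.046), Hmga2 (0.062), Gm2115 (0.073), Tfpi2 (0.079) and Alcam (0.079). Hmga2, a chromatin protein of embryonic and mesenchymal cells, read 446 and 373 in the WT clones and 1417 and 1437 in KO arrays, with probes (suffix _s_at) that may match related transcripts. Alcam, a cell adhesion molecule, read 23.5 and 10.5 in WT arrays and 99.4 and 95.4 in KO arrays. For Pdgfra 1421917_at they were Maf1 (0.039), Zfp207 (0.054), Top2a (0.054), Dcaf12 (0.070) and Dtl (0.072), all with the highest value in KO clone 1. Top2a, the DNA topoisomerase of dividing cells, read 150 and 193 in WT, 401 in KO clone 1 and 212 in KO clone 2 on that probe set. With 4 arrays many genes share any given profile, and these distances are a description.

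**Figure D4:**
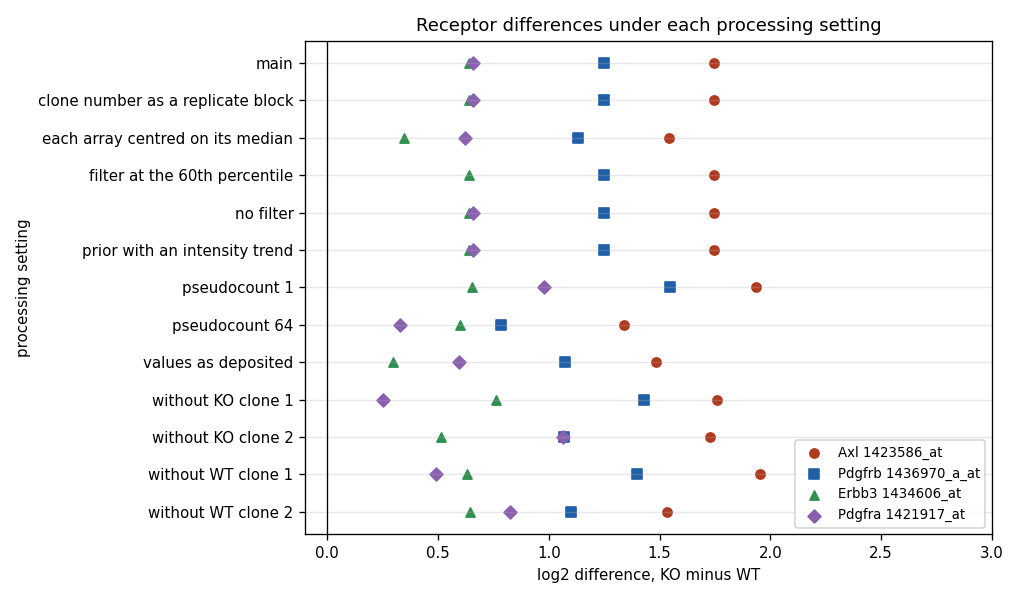
Log2 difference of KO minus WT (x axis) of 4 receptor probe sets under the setting reported (main) and 12 alternatives (y axis). Axl stays between 1.34 and 1.95 and Pdgfrb between 0.79 and 1.55, Erbb3 ranges from 0.30 to 0.76, and Pdgfra 1421917_at ranges from 0.25 without KO clone 1 to 1.06 without KO clone 2, with no value under the filter at the 60th percentile because it was removed there.

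The 12 alternatives reuse the same arrays, and the members were chosen with this contrast known. Passing the array-wide threshold under them is therefore a description and no support. With all arrays in the fit, Axl was past it in all but the pseudocount of 1. Pdgfrb was not past it with no filter, with a pseudocount of 1 and in the values as deposited. Erbb3 1434606_at was past it with a pseudocount of 64 and with an intensity trend in the variance. The filter and trend settings leave a difference unchanged. With 1 array left out, the log2 difference ran from 1.53 to 1.95 for Axl and from 1.07 to 1.43 for Pdgfrb.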

How the data were processed

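The deposited values are linear intensities, 1 for each probe set on each array. How the authors summarised, corrected or scaled them is unstated in the sources used here. Arrays were grouped by title and quantile normalized with limma 3.58.1 (R 4.3.3). Then log2(intensity + 16) was computed, which understates the fold of dim genes. The 64 control probe sets were left out, and 27022 probe sets at or above the 40th percentile of mean log2 signal were kept. KO was compared with WT by a linear model (lmFit, 2 residual degrees of freedom) with variances moderated by eBayes (6.87 prior degrees of freedom). P-values were Benjamini-Hochberg adjusted over all kept probe sets, with 0.05 as the threshold. The fit was run on simulated data with independent noise between arrays. That run cannot show how the fit behaves with 2 real clones per group, and nothing is read from it. The number of arrays limits the precision, and no detection calls were used.

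Names came from the platform annotation (34958 probe sets with 1 symbol, 932 with several, 9160 with none), and 34754 gene IDs matched the GRCm38.p6 table. A list gene is represented by its brightest kept probe set, with the suffix _x_at only if it had no other. Named were all members, Klf5, up to 4 genes of each list (at most 2 that rose and 2 that fell most among those that passed, otherwise the largest by size), and the 5 genes nearest in profile to Axl and to Pdgfra. Pros1, Csf1r and Pdgfb were named after their values were seen, as ligands or receptors. The members and lists were chosen with earlier results of these data known.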

Additional observations from a re-analysis of the deposited data

How the results depend on the processing

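The count of probe sets past the threshold, 996, depended on the processing: 2507 (748 higher and 1759 lower) with each array centred on its median, 2060 with a pseudocount of 64, 1955 with an intensity trend, 332 in the values as deposited, 190 with no filter, 189 with a pseudocount of 1, and 211 to 594 with 1 array left out. The cause was not tested. Centring on the median and the values as deposited moved the median difference of all probe sets to -0.15 and -0.19. The member count of 2 became 1 with no filter, 1 in the values as deposited and 0 with a pseudocount of 1 (limma; 4 at an unadjusted p under 0.05), and 1 to 2 with 1 array left out. The 6 genes called on the receptor lists became 15 with centring on the median (4 higher and 11 lower), 10 with a pseudocount of 64 and 3 with a pseudocount of 1, and 4 to 6 with 1 array left out.

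With the clone number as a replicate block, 1390 probe sets, 2 member probe sets and 8 list genes passed (Pdgfc and Vegfa were added). The deviations of same-numbered clones from their group means correlated at 0.055 over probe sets, so the numbers are not taken to pair the clones. Of 231 member values under the alternatives, 207 moved by less than the spread between clones and 24 by more. The filter, block and trend settings leave a difference unchanged, and leaving out 1 array cannot move it by more than this spread. Only the pseudocounts, the centring and the values as deposited could do so, and the count of 207 is therefore no measure of robustness. Of 279 values of the 24 named list genes, 252 kept their direction and side of the threshold, 14 lost the call, 13 gained one and 0 changed sign. With 1 array in a group, that array is assumed to vary like the others. Dim probe sets near the filter intensity, such as those of Pdgfra, Egfr and Ereg, limit what sizes can be read.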
